A study of Mus musculus with 12 samples.

Results

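The nuclear-encoded genes of the mitochondrial respiratory chain were followed in mouse eye organoids in which lactate dehydrogenase was inhibited and lactate was given back. Members were all protein-coding genes on nuclear chromosomes whose symbol begins with Nduf, Uqcr, Cox4 to Cox8 or Atp5, or is Sdha, Sdhb, Sdhc or Sdhd, with 10 or more counts summed over the 12 libraries. Of 54232 gene IDs in the deposited tables, 92 met this rule. They were 38 genes of complex I, 8 genes named as complex I assembly factors, 4 of complex II, 8 of complex III, 17 of complex IV and 17 of complex V. The symbols alone matched 94 genes, and the pair left out, Cox8b and a second gene ID of Atp5o, held 2 and 0 counts. Just inside the threshold were Ndufs5 with 29 counts, Cox7b2 with 38 and Cox8c with 42. Names follow the annotation used here, so that Cox14, Cox17 and other assembly factors, cytochrome c1 (Cyc1) and cytochrome c (Cycs) fell outside the rule and were treated as separate lists.

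The libraries hold bulk RNA of organoids that mouse embryonic stem cells form in culture. All 12 came from Rax-GFP cells, heterozygous for a knock-in of GFP at Rax, a transcription factor gene of the early eye field, and were taken at day 7 of culture. The 3 groups of 4 libraries were control organoids, organoids treated for 3 days with 20 µM of the lactate dehydrogenase inhibitor GNE-140 (LDHi), and organoids that received 25 mM sodium L-lactate besides GNE-140 (LDHi+lactate). The labels state that lactate was given for 12 h before the inhibitor, whereas the study's methods describe both agents together. All groups share 1 reporter line, and each library holds whole organoids, so that fewer cells of a type and less RNA per cell cannot be told apart.

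The respiratory chain carries electrons from NADH (complex I) and succinate (complex II) through ubiquinol and cytochrome c (complex III) to oxygen (complex IV), and complex V uses the resulting proton gradient to make ATP. Complexes I, III, IV and V combine subunits from nuclear genes with a few from mitochondrial DNA, while complex II is nuclear throughout. Cells that turn pyruvate into lactate regenerate NAD+ in the cytosol without the chain.

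Library totals ranged from 22174002 to 48271386 counts, and members took 0.931% to 1.22% of them. The mitochondrial subunits of the chain could not be followed, since mitochondrial genes hold 0 counts in these tables. Replicates 1 and 2 were labelled eye organoid and replicates 3 and 4 retina progenitors, with the totals of replicates 3 and 4 between 22174002 and 29919036, below all those of replicates 1 and 2. They are called the first and the second set. Deviations from the group means were correlated between libraries of the same replicate number (r of 0.329 to 0.634 across genes in 12 pairs), against -0.22 to 0.197 for other pairs of the same set, so counts of members called are given without and with the replicate number as a block, and values of single genes with the block except where the fit without it is named. Eye field genes were at a summed 586 to 1200 CPM (counts scaled by library size with TMM) in control, 416 to 501 in LDHi and 593 to 863 in LDHi+lactate. With the block, all 6 of them were called lower in LDHi than in control, all 6 pluripotency markers higher and 5 of 6 mesenchyme markers lower. Without it, 3 eye field genes were called lower, 4 pluripotency markers higher and 3 mesenchyme markers lower. Of all genes, 19.9% were called with the block and 3.09% without. The part of these marker genes in the results below was not tested.

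Levels were compared between genes only per length, as CPM per kilobase of the transcript. Complex V held the most abundant member in control organoids, Atp5b, the catalytic β subunit of the ATP synthase, at 889 ± 108 CPM per kb (SD, n = 4). Its partner in the catalytic ring, Atp5a1, stood at 523 ± 32, and Atp5g3, 1 of 3 genes for the same membrane ring subunit, at 449 ± 85.6. In complex IV, Cox4i1, the broadly expressed form of subunit 4, led with 640 ± 37.9. Complex I was led by Ndufa4 with 271 ± 49.4, a subunit since assigned to complex IV, complex III by Uqcrq, a small subunit, with 228 ± 88.1, and complex II by Sdha, the flavoprotein, with 114 ± 7.18. Within complex II the levels of Sdha, Sdhb at 113 ± 16.1 and Sdhd at 111 ± 15.6 did not differ beyond their spread, and Sdhc lay lower at 52.2 ± 2.97. The medians over members were 79.3 CPM per kb for complex I, 112 for complex II, 145 for complex III, 87.8 for complex IV and 139 for complex V. The complex I assembly factors were scarcer, with a median of 14.9 and a range of 10.7 (Ndufaf3) to 40.2 (Ndufaf2).

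**Figure D1:**
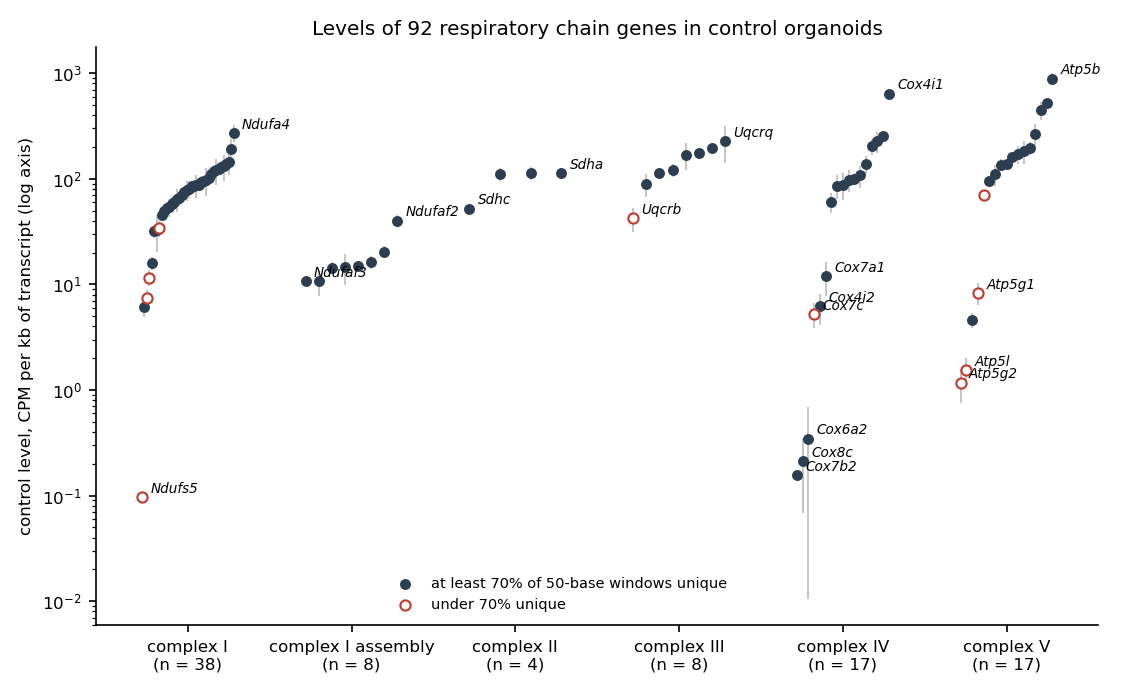
Mean level of the 92 genes in 4 control libraries, in CPM per kb of transcript on a log axis, by complex, with SD bars where the SD is smaller than the mean. Open circles mark genes of which under 70% of the 50-base windows are unique, among them Ndufs5 at 0.0961 and Atp5g2 at 1.17, while Atp5b reaches 889 and Cox4i1 640.

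Some of the lowest members were those whose sequence recurs in transcripts of other genes. Reads were 50 bases long, and for each member the share of 50-base windows found in no transcript of another gene was counted, leaving overlapping genes aside. In 10 members this share was under 70%, namely Ndufab1, Ndufb4, Ndufs3, Ndufs5, Uqcrb, Cox7c, Atp5g1, Atp5g2, Atp5h and Atp5l, and their median level was 7.91 CPM per kb against 95 for the other 82. Atp5g2 had no unique window at all, and Atp5l had 31.5% unique and shared windows with 13 other genes. Levels of these 10 are uncertain, since how reads with several matches were counted is not stated. The transcript used was the shortest of the best principal class, and for 8 members another principal transcript was over 1.5 times as long, among them Uqcrq, Atp5g1 and Ndufb2.

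Several subunits of complex IV and a few others have a broad and a tissue-restricted form, and the broad form dominated in most pairs. In control, Cox6a2, the heart and muscle form of subunit 6a, stood at 0.136% ± 0.123 (SD, n = 4) of Cox6a1 per length. Cox7b2, at 0.148% ± 0.142 of Cox7b, and Cox8c, at 0.101% ± 0.0649 of Cox8a, are forms known from testis and were as scarce. Cox4i2, the form of subunit 4 known from lung and hypoxic cells, stood at 0.966% ± 0.313 of Cox4i1, and Ndufa4l2 at 2.32% ± 0.595 of Ndufa4. Cox7a1, the muscle form of subunit 7a, reached 8.61% ± 1.75 of Cox7a2. Cox6b2, known as the testis form of subunit 6b, was higher, at 39.6% ± 6.44 of Cox6b1. Cox7a2l, a related gene known for its part in joining complexes III and IV, stood at 62.7% ± 9.46 of Cox7a2. In complex V, Atp5g1 and Atp5g2, both with few unique windows, stood at 1.88% ± 0.477 and 0.263% ± 0.0905 of Atp5g3. Markers of striated muscle and heart summed to 6.48 to 9.1 CPM in every library of the 3 groups, with Ckm between 0 and 0.172 CPM, and germ cell markers to 20.5 to 39.7 CPM in control, 36 to 65.3 in LDHi and 37.5 to 63.7 in LDHi+lactate.

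The promoters of members whose results are described below, and of 1 gene of each complex, are shown as 300 bases of RefSeq sequence (build GRCm38.p6) from 250 before to 50 after the annotated start. Promoter entries were matched for 73 of the 92 members. Capitals mark matches, on either strand, of the NRF1 core GCGCATGCG and of the ETS core CCGGAAG, which GABP binds, both known from promoters of respiratory genes. The NRF1 core was in 10 of 73 member promoters (13.7%) and in 489 of all 27025 promoters (1.81%), the ETS core in 17 (23.3%) against 9.12% of all, and the YY1 core AAGATGGC in 9 (12.3%) against 2.88%. The 2 NRF1 matches on opposite strands overlap in a single run of 10 capitals. Lines give complex I (Ndufs8, chr19:3912725-3913024, minus strand), complex II (Sdhb, chr4:140961021-140961320, plus strand), complex III (Uqcrc1, chr9:108936398-108936697, plus strand), complex IV (Cox6a1, chr5:115348909-115349208, minus strand, and Cox7a1, chr7:30183921-30184220, plus strand) and complex V (Atp5b, chr10:128083057-128083356, plus strand). The last pair holds none of these letters, and a match is a description of the sequence, not a bound site.
Ndufs8: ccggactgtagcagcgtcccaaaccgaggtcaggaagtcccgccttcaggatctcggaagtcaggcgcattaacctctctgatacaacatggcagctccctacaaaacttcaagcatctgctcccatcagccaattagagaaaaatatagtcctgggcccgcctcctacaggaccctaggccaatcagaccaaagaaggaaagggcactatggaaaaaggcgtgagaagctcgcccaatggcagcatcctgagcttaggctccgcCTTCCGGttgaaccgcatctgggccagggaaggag
Sdhb: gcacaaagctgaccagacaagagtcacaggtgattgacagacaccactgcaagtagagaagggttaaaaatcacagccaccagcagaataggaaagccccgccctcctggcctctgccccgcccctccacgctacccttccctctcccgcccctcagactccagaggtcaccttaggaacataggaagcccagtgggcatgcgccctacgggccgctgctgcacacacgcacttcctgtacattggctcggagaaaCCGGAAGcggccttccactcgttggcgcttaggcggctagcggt
Uqcrc1: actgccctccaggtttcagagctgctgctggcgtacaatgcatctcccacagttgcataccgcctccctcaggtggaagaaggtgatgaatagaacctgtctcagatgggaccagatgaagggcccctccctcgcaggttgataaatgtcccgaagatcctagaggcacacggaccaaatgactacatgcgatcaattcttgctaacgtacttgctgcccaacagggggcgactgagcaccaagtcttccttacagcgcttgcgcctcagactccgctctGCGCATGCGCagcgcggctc
Cox6a1: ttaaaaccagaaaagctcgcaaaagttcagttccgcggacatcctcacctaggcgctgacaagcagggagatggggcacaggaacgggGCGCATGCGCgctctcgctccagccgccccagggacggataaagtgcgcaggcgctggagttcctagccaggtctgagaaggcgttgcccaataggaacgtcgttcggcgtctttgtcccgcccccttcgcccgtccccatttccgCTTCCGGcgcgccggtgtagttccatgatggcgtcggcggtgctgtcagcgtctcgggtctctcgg
Cox7a1: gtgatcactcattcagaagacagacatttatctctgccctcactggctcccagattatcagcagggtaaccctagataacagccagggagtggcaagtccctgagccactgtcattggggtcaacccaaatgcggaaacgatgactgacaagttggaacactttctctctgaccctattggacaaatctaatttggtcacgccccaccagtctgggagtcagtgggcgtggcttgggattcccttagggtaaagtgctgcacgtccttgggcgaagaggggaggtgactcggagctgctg
Atp5b: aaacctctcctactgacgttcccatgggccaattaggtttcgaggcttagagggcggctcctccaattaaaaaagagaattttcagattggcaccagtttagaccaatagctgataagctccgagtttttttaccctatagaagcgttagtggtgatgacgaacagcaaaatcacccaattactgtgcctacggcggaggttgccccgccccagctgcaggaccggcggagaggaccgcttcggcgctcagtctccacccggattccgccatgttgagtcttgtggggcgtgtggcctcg

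The first comparison asked whether inhibition of lactate dehydrogenase changed the RNA levels of the chain. Without a block, 0 of 89 members tested were called by edgeR (adjusted p under 0.05 over all 17721 genes tested), while 3.09% of all genes were, and 4 members had an unadjusted p under 0.05. With the replicate number as a block, 13 of 89 members (14.6%) were called, 12 higher and 1 lower in LDHi, against 19.9% of all genes, 9.85% higher and 10.1% lower. The share of members called was thus below that of all genes, and the calls went mostly 1 way. The median log2 fold change over members was 0.0457 without and 0.0549 with the block, against 0.00857 and 0.0117 over all genes. Changes were small, since with the block the 95% interval lay within 0.5 of 0 on the log2 scale for 80 of 89 members and within 1 for 83. Without the block it lay within 0.5 for 61 and within 1 for 83. The 3 members not tested, Ndufs5, Cox7b2 and Cox8c, fell under the filter on low counts.

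The summed level of all members was 10763, 12074, 10012 and 9071 CPM in control libraries 1 to 4, 11000, 12311, 11476 and 10113 in LDHi, and 11455, 12261, 10670 and 9795 in LDHi+lactate. The groups overlapped, each pair of LDHi and control libraries of the same number was higher in LDHi, and the rise was larger in replicates 3 and 4. The median log2 fold change of LDHi over control within a pair was 5.08e-05 and 0.0182 for replicates 1 and 2, and 0.121 and 0.12 for replicates 3 and 4. The difference between the sets in this response was tested for each gene as an interaction, and 0 members were called (smallest adjusted p 0.89 in edgeR's quasi-likelihood test, 0 with an unadjusted p under 0.05). The same test called 0 of 17721 genes, so it tells nothing of the members in particular.

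**Figure D2:**
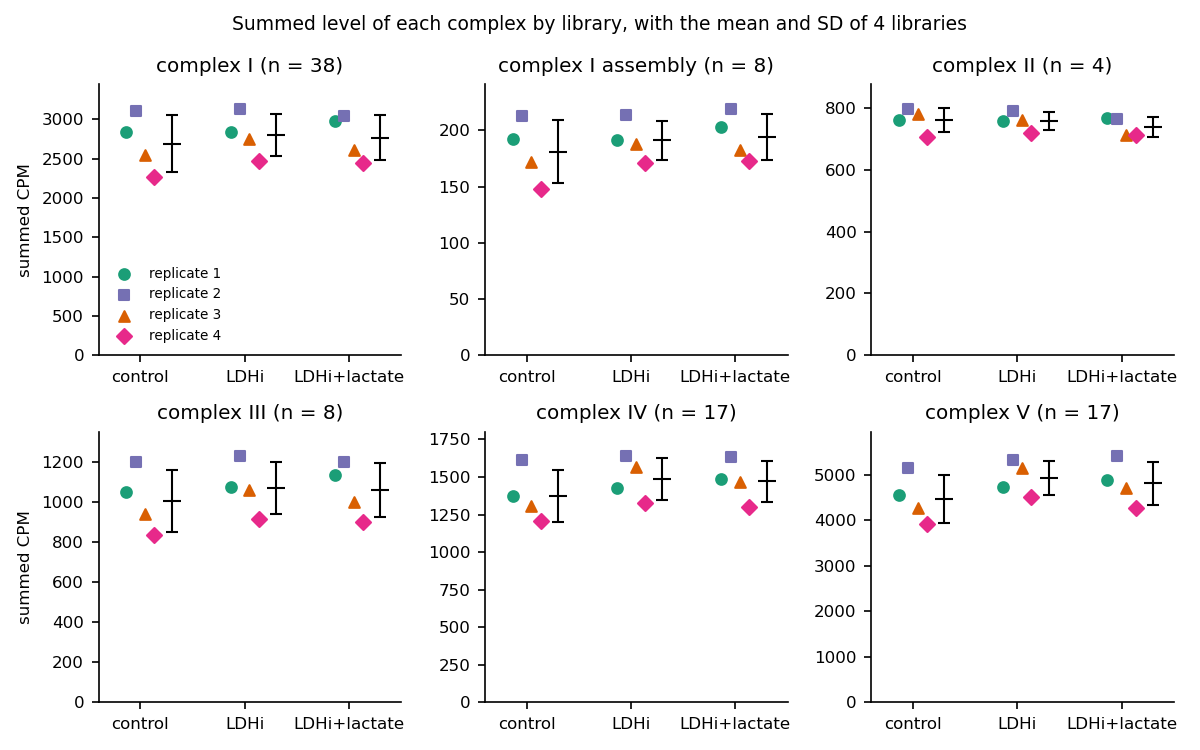
Summed CPM of each complex in each of the 12 libraries, by group, with the symbol and colour giving the replicate number and the black bar the mean and SD of 4 libraries. Groups overlap in every complex, replicate 2 is high and replicate 4 low in most groups, and complex II spans only 707 to 797 CPM.

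Complex I had 4 of 37 tested members called with the block, all higher in LDHi, a share of 10.8% near the 9.85% of all genes called higher. Ndufs8, an iron-sulfur subunit of the arm that passes electrons to ubiquinone, lies on chromosome 19 (3908863 to 3912774, GRCm38). It was at 59.4, 62.9, 40.1 and 39.3 CPM in control libraries 1 to 4, at 72.3, 76.5, 60 and 48.8 in LDHi, and at 71.4, 74.3, 52.3 and 51.1 in LDHi+lactate. Groups overlapped because the second set lay lower, yet every LDHi library exceeded the control of its number. Its log2 fold change was 0.36 ± 0.0612 (SE), with an adjusted p of 0.00282 (edgeR with the block) against 0.432 without. Ndufb10 and Ndufb9, accessory subunits of the membrane arm, rose by 0.24 (adjusted p 0.0145) and 0.20 (0.0308), and Ndufa13, an accessory subunit also known as GRIM-19, by 0.19 (0.0345), each higher in 4 of 4 pairs. Ndufa13 shares bases with Tssk6 and Yjefn3, and reads of the overlap cannot be assigned, since the strand setting is not stated. Ndufv1 and Ndufv2, core subunits of the NADH-oxidising module, and the iron-sulfur subunit Ndufs1 were not called. Of 8 assembly factors 0 were called, against 19.9% of all genes. Ndufaf6 had the largest change among these factors, at 0.30 ± 0.123 with an adjusted p of 0.116.

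Complex II had 0 of 4 members called with the block or without it, against 19.9% and 3.09% of all genes, and 0 with an unadjusted p under 0.05 in either. Sdha, which oxidises succinate, was at 316, 313, 359 and 332 CPM in control libraries 1 to 4 and at 322, 327, 349 and 344 in LDHi. The groups overlapped, and Sdha varied by 4.19% (coefficient of variation) over the 12 libraries. Its 95% interval with the block ran from -0.07 to 0.12 on the log2 scale. Those of Sdhb, the iron-sulfur subunit, and of the membrane anchors Sdhc and Sdhd ran from -0.07 to 0.13, from -0.19 to 0.03 and from -0.13 to 0.09.

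Complex III had 3 of 8 members called with the block (37.5%), all higher in LDHi, against 9.85% of all genes called higher. Uqcrq (chromosome 11, 53427922 to 53430831) was at 110, 134, 65.1 and 60.1 CPM in control and at 127, 155, 80.1 and 70.3 in LDHi. Its libraries separated by set rather than by group, and within each number LDHi was the higher, with a log2 fold change of 0.24 ± 0.0497 and an adjusted p of 0.00857 (edgeR with the block) against 0.83 without. Uqcrc1, a core protein of the complex, rose by 0.16 ± 0.0452 (0.0286) and Uqcr10, a small subunit, by 0.24 ± 0.0691 (0.0353), both in 4 of 4 pairs. Uqcrfs1, the Rieske iron-sulfur protein, and Uqcrc2, the other core protein, were not called. Cyc1, outside the rule, had a log2 fold change of 0.12 with an adjusted p of 0.148.

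Complex IV held the largest change in either direction, both in tissue-restricted forms. Cox4i2 (chromosome 2, 152754173 to 152765037) was at 3.85, 3.72, 6.68 and 3.71 CPM in control, at 1.68, 1.25, 2.62 and 1.8 in LDHi, and at 1.4, 1.56, 5.08 and 2.57 in LDHi+lactate. Every LDHi library lay below every control library, and control library 3 stood far above the other 3. Its log2 fold change was -1.29 ± 0.22 with the block (adjusted p 0.00295) and -1.30 ± 0.409 without (adjusted p 0.117). The exact permutation p was 0.0286, the smallest that 4 against 4 libraries can give. Any gene whose groups do not overlap gets this p, so it only restates the lack of overlap. DESeq2 without a block called Cox4i2 too. Its ratio to Cox4i1 per length was 0.966% ± 0.313 in control, 0.36% ± 0.0888 in LDHi and 0.503% ± 0.286 in LDHi+lactate, while Cox4i1 itself had a log2 fold change of 0.12 (adjusted p 0.105). Mesenchyme markers, which were lower in LDHi, summed to 194 to 650 CPM in control, 116 to 165 in LDHi and 140 to 165 in LDHi+lactate. Their part in the fall of Cox4i2 was not tested.

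Cox7a1 (chromosome 7, 30184144 to 30186078) moved the other way. It was at 3.81, 6.98, 4.99 and 3.09 CPM in control, at 6.43, 6.95, 10.6 and 9.28 in LDHi and at 6.41, 11.3, 8.78 and 6.99 in LDHi+lactate. The groups overlapped through control library 2, the highest control, whose LDHi partner was not higher. The log2 fold change was 0.85 ± 0.216 with the block (adjusted p 0.0198) and 0.81 without (adjusted p 0.153), and without control replicate 2 it was the 1 member called in the fit without a block. Its ratio to Cox7a2 per length was 8.61% ± 1.75 in control, 15.8% ± 4.81 in LDHi and 15.6% ± 3.09 in LDHi+lactate, and Cox7a2 was not called (log2 fold change 0.01). Of 6 striated muscle and heart markers tested, Actc1 alone was called with the block, and it was lower in LDHi. Myh6, not called, was at 1.6, 2.22, 3.3 and 2.36 CPM in control libraries 1 to 4 and at 1.92, 2.75, 4.42 and 3.95 in LDHi. Myh7 and Tnni3 rose in pair 2 and fell in pairs 1, 3 and 4. Striated muscle and heart markers summed to 8.411, 6.745, 9.095 and 7.579 CPM in control and 6.478, 7.812, 7.406 and 6.905 in LDHi. The part of muscle and other marker genes in the rise of Cox7a1 was not tested.

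Among the broad forms, Cox6a1 (chromosome 5, 115345642 to 115348981) was at 134, 168, 109 and 107 CPM in control and at 168, 196, 155 and 128 in LDHi. Every pair was higher in LDHi, although the groups overlapped, and the log2 fold change was 0.33 ± 0.0557 (adjusted p 0.00301 with the block, 0.415 without). Cox5a, a matrix-side subunit, rose by 0.23 ± 0.0717 (adjusted p 0.0464 with the block) in 3 of 4 pairs. The other tested members of complex IV were not called. Cox6b2, high for a testis form, had a log2 fold change of 0.04, with 44.1, 43.8, 54.5 and 43.3 CPM in control and 39.6, 45.5, 69 and 40 in LDHi.

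Complex V had 2 of 17 members called with the block, both of the catalytic ring and both higher in LDHi. This share of 11.8% was near the 9.85% of all genes called higher. Atp5b was at 1705, 1981, 1642 and 1484 CPM in control and at 1829, 2111, 2144 and 1822 in LDHi, a log2 fold change of 0.22 ± 0.0552 (adjusted p 0.019). Atp5a1 was at 1287, 1400, 1270 and 1211 in control and at 1368, 1479, 1492 and 1331 in LDHi, a log2 fold change of 0.13 ± 0.042 (adjusted p 0.0468). Both overlapped between groups and were higher in 4 of 4 pairs. Atp5s, a gene named for coupling factor B, had a log2 fold change of -0.39 ± 0.127 and was not called (adjusted p 0.053, edgeR with the block). Its libraries did not overlap, with 5.83 to 8.04 CPM in control and 4.88 to 5.44 in LDHi. The exact permutation p of 0.0286 only restates this, since any gene without overlap gets it. DESeq2 with the block called Atp5s lower. Cox4i2 and Atp5s were the 2 members of 89 whose LDHi and control libraries did not overlap. With labels set at random over libraries alike in other respects, 4 against 4 libraries would separate for a share of 0.0286 of genes. Both groups span the 2 sets, which differ in many members, so this share is not the chance rate for these genes. The number of such members does not by itself show an effect, and the share among all genes was not counted.

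**Figure D3:**
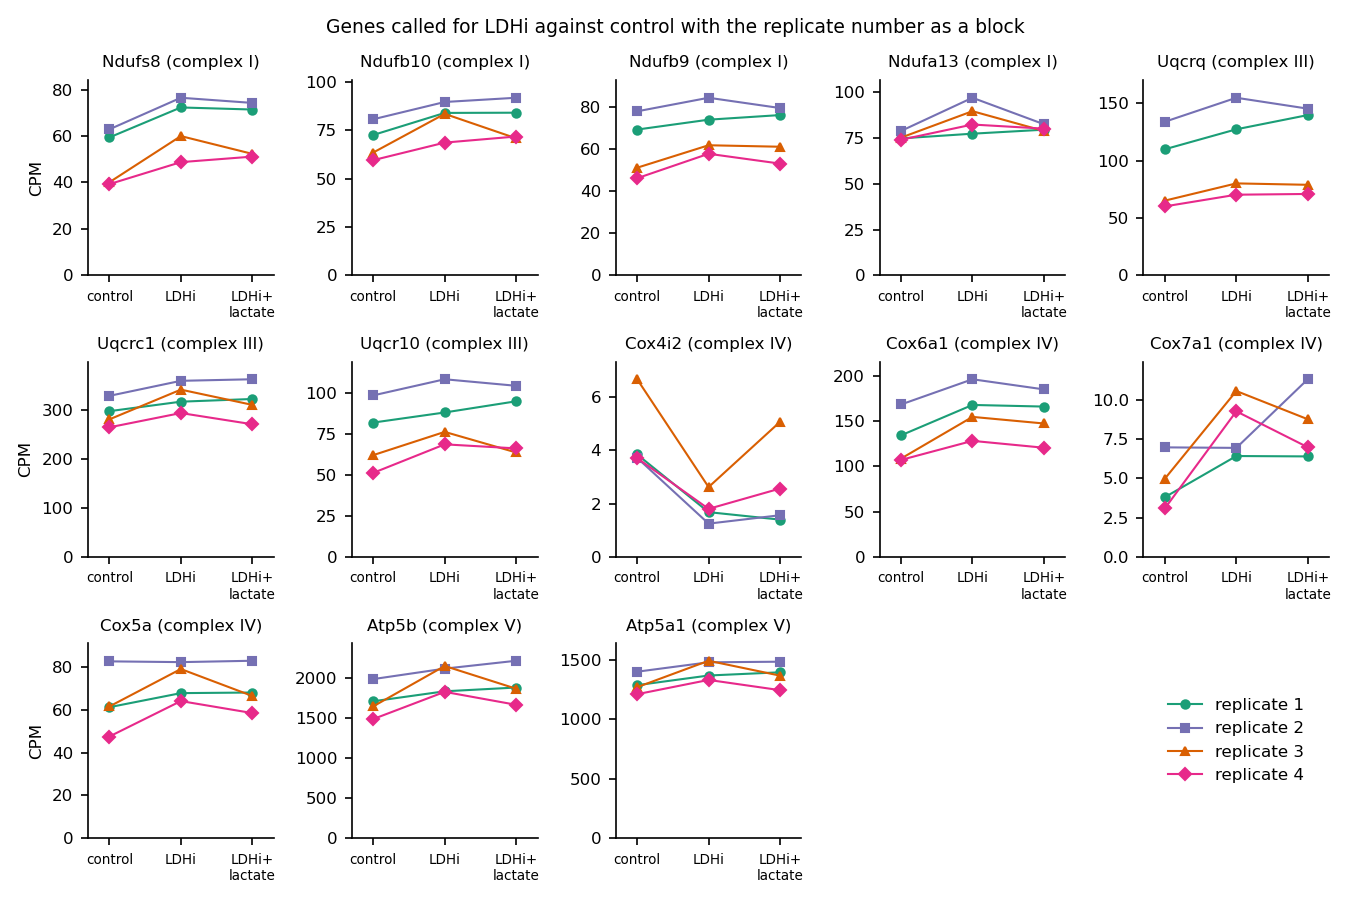
CPM of the 13 genes called for LDHi against control with the block, in each library, with lines joining libraries of the same replicate number. Lines of 12 genes rise from control to LDHi in at least 3 of 4 numbers, and all 4 lines of Cox4i2 fall.

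Within pairs, 25 of 89 members were higher in LDHi in 4 of 4 numbers and 7 were lower in 4 of 4, against 18.5% and 17.9% of all genes. The blocked calls changed when a number was left out, over members and over all genes. Left out in turn, replicate 1 gave 5 called members, replicate 2 gave 10, replicate 3 gave 4 and replicate 4 gave 3. Over all genes these fits called 823, 1424, 915 and 908 higher and 1003, 1469, 1125 and 1256 lower. With all 4 numbers the block called 1746 genes higher and 1787 lower. Ndufs8, Cox6a1 and Cox4i2 were called in each of these 4 fits, with adjusted p of at most 0.0202, 0.0253 and 0.0189. Uqcrq, Ndufb10 and Atp5b were called in 2 of them, and Cox7a1, Cox5a and Ndufb9 in 1, without replicate 2. Ndufa13, Uqcrc1, Uqcr10 and Atp5a1 were called in 0 of the 4. Without a block, the adjusted p of Ndufb10, Ndufb9, Ndufa13, Uqcrc1, Uqcr10, Cox5a, Atp5b and Atp5a1 lay between 0.233 and 0.737. With the set in place of the replicate number, Cox4i2 and Ndufs8 alone were called among members, against 7.83% of all genes.

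The next comparison asked whether lactate, added with the inhibitor, changed these levels. Without a block 0 of 89 members were called for LDHi+lactate against LDHi, as were 0% of all genes, and 1 member had an unadjusted p under 0.05. With the block edgeR called 0 members, against 0.638% of all genes (0.57% higher and 0.0677% lower), and 2 had an unadjusted p under 0.05. DESeq2 with the block also called 0 members, while it called 351 of 17721 genes higher and 134 lower. The median log2 fold change was -0.00831 without and -0.0105 with the block, and with the block the 95% interval lay within 0.5 of 0 for 82 of 89 members, against 70 without the block. Of the 13 genes named above for LDHi against control, Cox4i2 had the largest change with lactate, at 0.41 ± 0.224 on the log2 scale with an interval from -0.09 to 0.90. For Ndufs8 the interval ran from -0.18 to 0.09, for Cox6a1 from -0.19 to 0.06 and for Cox7a1 from -0.49 to 0.45.

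LDHi+lactate and LDHi libraries did not overlap for Cox6b2 and Ndufv3, neither of which was called. These were 2 of 89 members, a number that, as for LDHi and control, does not by itself show an effect. Cox6b2 was at 36.7, 36.1, 38.8 and 39.6 CPM in LDHi+lactate, below the 39.6 to 69 of LDHi, with a log2 fold change of -0.32 ± 0.111 (adjusted p 0.284 with the block). The gap between the groups was narrow, from 39.59 in the highest LDHi+lactate library to 39.64 in the lowest LDHi library. Ndufv3, a small subunit of the NADH-oxidising module, was at 59.6, 63.4, 65.4 and 64.6 CPM in LDHi and at 68.8, 72, 75.9 and 70.9 in LDHi+lactate, with a log2 fold change of 0.19 ± 0.0802 (adjusted p 0.415 with the block).

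LDHi+lactate was then set against control, a comparison that shares its libraries with those above and is no separate evidence for them. Without a block 0 members were called, as were 0% of all genes. With the block 5 of 89 were called, 4 higher and 1 lower, against 8.05% of all genes, 4.18% higher and 3.87% lower. Ndufs8 was higher by 0.32 ± 0.0611 (adjusted p 0.0174), Uqcrq by 0.25 ± 0.0497 (0.0202), Cox6a1 by 0.26 ± 0.0557 (0.0239) and Cox7a1 by 0.83 ± 0.213 (0.0423). Cox4i2 was lower, with a log2 fold change of -0.89 ± 0.217 (0.0373), and its groups overlapped through library 3 of each. Without replicate 2 the called members were 3 (Cox6a1, Cox7a1 and Uqcrq), without replicate 3 the 1 called was Ndufs8, and without replicate 1 or 4 there were 0. Over all genes the fits without replicates 1 to 4 called 38, 348, 242 and 129 higher and 51, 344, 139 and 133 lower. Ndufaf2, an assembly factor of complex I, and Cox6b2 had libraries that did not overlap and were not called (adjusted p 0.122 and 0.133 with the block). They were again 2 of 89 members, which by itself does not show an effect.

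**Figure D4:**
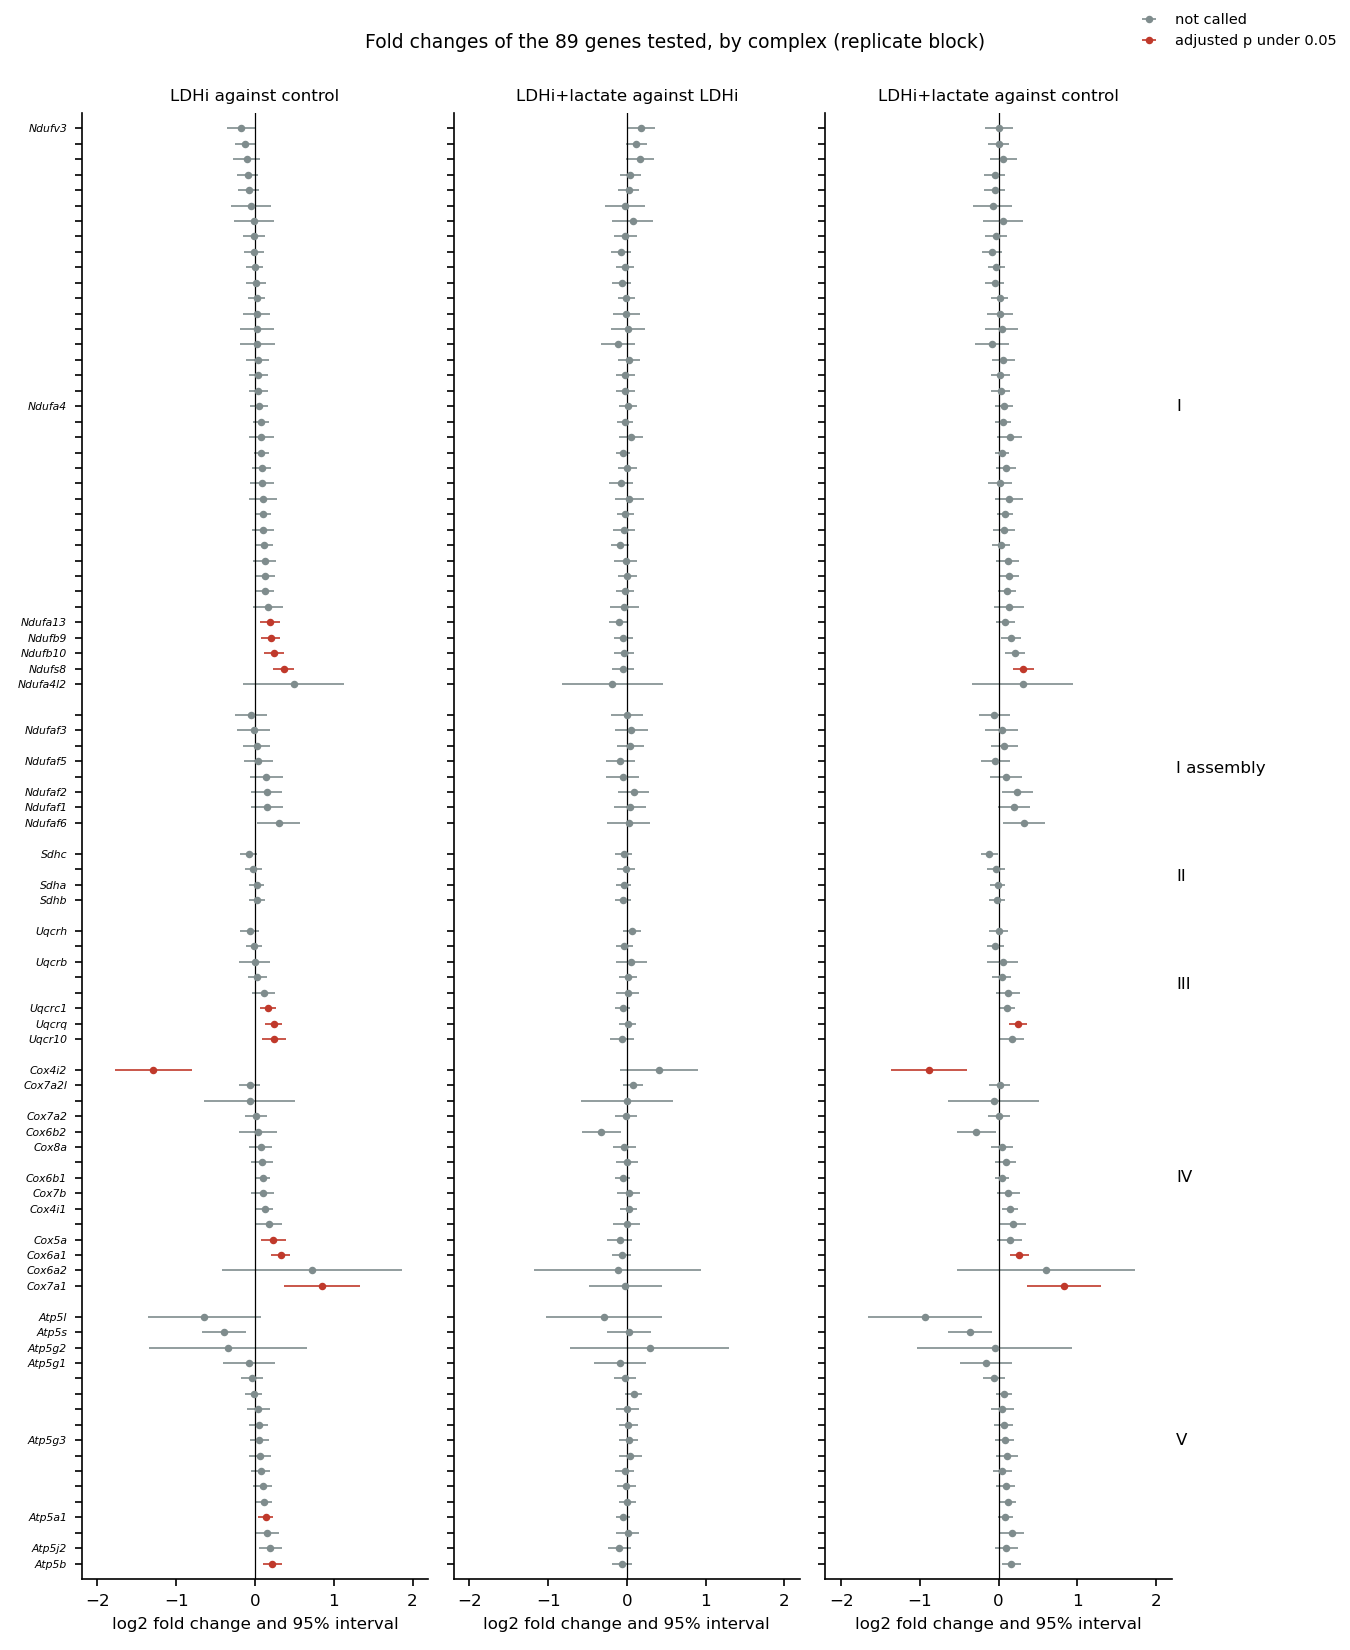
Log2 fold change and 95% interval of the 89 genes tested in the 3 comparisons, fitted with the replicate block and ordered within each complex by the change in LDHi against control, with called genes in red and names given for some of the genes. The changes in LDHi against control run from -1.29 (Cox4i2) to 0.85 (Cox7a1), no gene is red in the middle panel, and 5 are in the last.

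The larger difference within these genes lay between the sets of libraries. In a fit with group and set, 51 of 89 members were called between the sets, 49 lower and 2 higher in the second, against 27.9% of all genes (14.3% lower and 13.7% higher). The median log2 fold change of the second set against the first was -0.26 over members. For 34 of 89 members every library of the second set lay below every library of the first, against 6.72% of all genes. By complex, 22 of 37 tested members of complex I were lower in the second set, 3 of 8 assembly factors, 1 of 4 of complex II, 6 of 8 of complex III, 8 of 15 of complex IV and 9 of 17 of complex V. The sets differ in label and in library total, and their biological and technical differences cannot be told apart.

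Uqcrq stood at 110 to 155 CPM in the first set and at 60.1 to 80.1 in the second, with no overlap (log2 fold change -0.93 ± 0.0694, adjusted p 8e-06). Ndufa5 and Ndufa2, accessory subunits of complex I, differed by -0.85 ± 0.0876 and -0.65 ± 0.0642. Ndufs8 and Ndufb9, called for LDHi with the block, were also lower in the second set, with log2 fold changes of -0.52 ± 0.0588 and -0.48 ± 0.0637. Cox6a2 had 174 counts over the 6 libraries of the first set and 4 over those of the second, with 0 in LDHi+lactate libraries 3 and 4, where 0 counts allow up to 0.1 and 0.103 CPM. The ratio of its counts per total, second to first, was 0.0381 (95% exact interval 0.0103 to 0.0992, counting error only). Cox4i2 and Ndufc1, a small subunit of complex I, were the 2 members higher in the second set, by 0.80 ± 0.245 and 0.20 ± 0.0578. For Cox4i2 library 3 was the highest of each group, with 6.68 CPM in control. Control library 4 was no higher in Cox4i2 than the control libraries of the first set. Of 12 hypoxia genes, 8 were called higher and 1 lower in the second set (median log2 fold change 0.49), and their part in the level of Cox4i2 was not tested. Their summed level differed less between the sets in control (1458 and 1482 against 1634 and 1557 CPM) than in LDHi (1103 and 1090 against 2166 and 1884). Of 77 mitochondrial ribosomal proteins, 43 were lower and 0 higher (median -0.27).

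**Figure D5:**
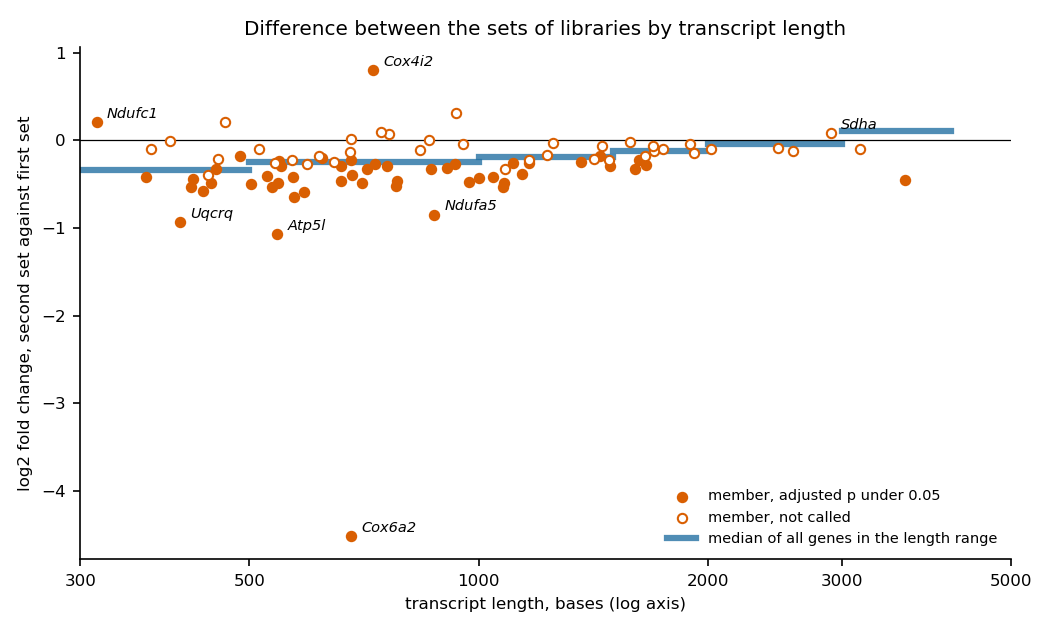
Log2 fold change of the second set against the first for the 89 genes tested, against transcript length in bases on a log axis, with filled circles for adjusted p under 0.05. Blue bars give the median of all genes in each range of length, from -0.34 up to 500 bases to 0.11 above 3000, and Cox6a2, Atp5l and Uqcrq lie lowest.

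The difference between the sets moved with transcript length in all genes. The median log2 fold change was -0.34 for 120 genes of up to 500 bases, -0.25 from there to 1000, -0.19 to 1500, -0.12 to 2000, -0.04 to 3000 and 0.11 above that. Members had a median of -0.36 for the 14 of up to 500 bases and -0.29 for the 42 from there to 1000, beside -0.37 and -0.26 for all genes of those lengths with a mean of at least 10 CPM. Called lower were 57.1% and 64.3% of these members, against 41.7% and 35.2% of all genes of those lengths and 72.5% and 51.1% of those with at least 10 CPM. Most members are short, as 56 of 89 have up to 1000 bases. The part of length in the members' difference was not tested.

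Among other genes of the pathway, the lists of assembly factors of complexes I, II, IV and V and the complex III list outside the rule held 0 called genes in any of the 3 comparisons, with or without the block. They had 9, 4, 22, 4 and 7 genes tested. With the block 19.9% of all genes were called for LDHi against control, 0.638% for LDHi+lactate against LDHi and 8.05% for LDHi+lactate against control. Without it the shares were 3.09%, 0% and 0%, so most of those zeros tell nothing of these lists. Of 22 genes of mitochondrial biogenesis and DNA, 6 rose and 3 fell in LDHi against control with the block, where 9.85% of all genes rose and 10.1% fell, and without the block 1 rose and 0 fell. Esrrb, an orphan nuclear receptor that is also on the pluripotency list, rose by 1.49 ± 0.278 on the log2 scale without the block (adjusted p 0.0178). Gabpa, the DNA-binding subunit of GABP, rose by 0.22 ± 0.0506 with the block (0.0119). Esrrg, a related receptor, had a change of -1.33 ± 0.243 (0.00428), and Ppargc1a, the coactivator of mitochondrial biogenesis, of -0.83 ± 0.186 (0.0117), at 1.29 to 7.33 CPM over control and LDHi libraries. Gabpa overlaps the member Atp5j, so that reads of the overlap cannot be assigned between them. Slc25a5, an ADP/ATP carrier, rose by 0.40 ± 0.0963 (0.0158) and Slc25a3, the phosphate carrier, by 0.18 ± 0.0519 (0.037), both with the block and neither called without it. Of 77 mitochondrial ribosomal proteins, 8 rose and 0 fell with the block, a share near the 9.85% of all genes that rose, and 0 were called without it. Among the 8 were Mrps24, by 0.32 ± 0.0645 (0.00667), and Mrpl51, by 0.37 ± 0.0801 (0.01). Of 23 import genes 2 rose with the block and 0 were called without it, and of 19 electron carriers and other donors Coq8b alone was called, only with the block, with a change of -0.31 ± 0.0827 (0.0251). Of 12 hypoxia genes Ndrg1 alone was called, higher by 0.77 ± 0.105 (0.00103). The summed level of the 12, to which Slc2a1 gave the most, was lower in LDHi than in control in replicates 1 and 2. In replicates 3 and 4 the sum was higher in LDHi. Control libraries 1 to 4 held 1458, 1482, 1634 and 1557 CPM, and LDHi libraries 1103, 1090, 2166 and 1884. The interaction of set and treatment was called for 0 of all 17721 genes. In LDHi+lactate against LDHi, 0 genes of these mitochondrial and hypoxia lists were called with the block, against 0.638% of all genes.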

How the data were processed

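Poly(A) RNA of 12 libraries was sequenced with single reads of 50 bases. The authors deposited raw counts per Ensembl gene for each library, with no normalization. The submitters' processing notes name cutadapt 1.13, STAR, HTSeq 0.6.1p1, DESeq2 1.14.1 and build mm10, and neither the strand setting nor the annotation release is given in the sources used here. Symbols, positions and transcripts came from GENCODE (GRCm38), matched by gene ID. The labels gave each library's group and number.

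Counts were scaled by TMM and tested with edgeR 4.0.16 (R 4.3.3), with filterByExpr by group, all 12 libraries in 1 quasi-likelihood fit and Benjamini-Hochberg adjustment over 17721 genes. Members, gene lists and tests were chosen with earlier results of these data known. The study's methods name 4 independent experiments and state no model for the test, and the fit without a block was taken as the main one. The pairing by replicate number was read from the data, since libraries of the same number deviated together in 12 of 12 pairs, so the replicate block is given beside it. Standard errors of edgeR fold changes are the absolute log2 fold change over the square root of the quasi-likelihood F statistic. The 95% intervals were built from these standard errors. For single genes an exact permutation test (two-sided) was run on log2 CPM with a prior count of 2. p-values measure the spread between these libraries.

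Genes named were those called in any comparison with or without the block, those with the smallest p or largest change of each complex and comparison, those with the highest and lowest level of each complex, all paired forms, Cyc1 and Cycs, and up to 4 called and 2 other genes of each list. Not all are printed, and genes of the text outside these (Atp5h, Ndufa5, Ndufa2, Ndufc1, Ndufv1, Ndufv2, Ndufs1, Uqcrc2, Uqcrfs1 and the members with few unique windows) were chosen after their values were seen. Alternatives were DESeq2 1.42.0, RLE size factors, library totals, other filters, the groups compared alone, a term for the set, either set by itself, libraries left out, and a minimum log2 fold change of 1. DESeq2 with the block was added after the data were seen. The edgeR steps were tested on simulated counts. A result on 1 member is not reported here. Figures were drawn with matplotlib 3.10.9.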

Additional observations from a re-analysis of the deposited data

Results flagged for a closer look

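In 135 groups of 4 libraries over 45 named genes, 4 held a library far from the other 3 by Dixon's test, where chance flags about 1 in 20 groups (5%). Cox4i2 was at 6.677 CPM in control library 3, against 3.71 to 3.85 in the other control libraries. Cox6b2 was at 54.49 CPM in the same library, against 43.3 to 44.1. Atp5g1 was at 3.185 CPM there, against 5.34 to 5.72, and this gene has only 34% unique windows. Ndufs5, which holds 29 counts in all, was at 0.2302 CPM in LDHi library 4, against 0.043 to 0.072 in the other LDHi libraries.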

How the results depend on the processing

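For LDHi against control, the fit without a block called 0 members, and other settings called 13 (replicate block), 2 (set as a term), 1 (DESeq2) and 14 (DESeq2 with the replicate block, chosen after seeing the data). Of all 17721 genes these fits called, in the same order, 161, 1746, 554, 498 and 2041 higher. Lower were 386, 1787, 833, 864 and 2075. Leaving out 1 library gave 0 to 1 without the block, and leaving out 1 replicate number gave 3 to 10 with it. Over all genes the former called 25 to 275 higher and 85 to 597 lower, and the latter 823 to 1424 and 1003 to 1469. The median log2 fold change of members was 0.12 in the second set alone and 0.00237 in the first, and it ran from -0.0335 (without control replicate 4) to 0.142 (without control replicate 2) over libraries left out. For LDHi+lactate against LDHi no setting called a member, and the median ran from -0.0727 (without LDHi+lactate replicate 2) to 0.0511 (without LDHi replicate 2). Without the replicate block edgeR called 0 to 2 of all genes in this comparison, so those zeros tell nothing of the members. With the block it called 101 genes higher and 12 lower. DESeq2 called 54 and 2 without the block and 351 and 134 with it. For LDHi+lactate against control, 5 members were called with the replicate block and 6 with DESeq2 and the block, and 0 to 3 with the block and a number left out, while the median ran from -0.0317 (without control replicate 4) to 0.132 (without control replicate 2). Over all genes the replicate block called 740 higher and 686 lower here, and DESeq2 with the block 1253 and 1268. The cause of these shifts was not tested. The 18 results of single members were not called in the fit without a block, so no alternative could lose a call. Under 421 of 486 alternatives they were still not called, and under 65 they were called, with the direction the same in all 486. Depth limits Cox7b2, Cox8c and, in the second set, Cox6a2, which hold a few counts per library. Ndufs5 holds as few, but under 70% of its windows are unique, so its level is uncertain. The part of shared sequence in its low count was not tested.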
